A study of Thermothelomyces thermophilus ATCC 42464 with 3 samples.

Results

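Endoxylanases of glycoside hydrolase families GH10 and GH11 were followed as transcripts in the heat-loving mould Thermothelomyces thermophilus (Myceliophthora thermophila in the series' title), which lives on decaying plant matter. The group consisted of 6 genes, picked by locus tag from published endoxylanases of this species, out of 9292 genes in the deposited table. They were chosen with earlier results of these data known. MYCTH_112050 and MYCTH_116553 are taken as GH10 and MYCTH_100068, MYCTH_89603, MYCTH_49824 and MYCTH_56237 as GH11. These families come from published work and were not checked against protein sequence here. The gene lengths behind the deposited FPKM were 1532 and 1238 bases for the GH10 pair and 672 to 837 bases for the GH11 genes, so the classes did not overlap in length.

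Xylan is the main hemicellulose of many plant cell walls, a backbone of linked xylose units that carries side chains. Endoxylanases cut within that backbone. GH10 enzymes are known for tolerating side chains near the cut, whereas GH11 enzymes are generally smaller and prefer unsubstituted stretches. Filamentous fungi secrete both kinds beside cellulases, and in several ascomycetes the transcription factor XlnR or XYR1 activates both sets of genes.

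3 libraries of messenger RNA profiles were compared, each from strain ATCC 42464. All mycelia grew for 16 h at 45 °C in Vogel's salts with 2% glucose and were then washed and transferred to 2% Avicel (microcrystalline cellulose) for 4 h, so no group was grown on xylan and no group stayed on glucose. 2 libraries were wild type (WT) and 1 was labelled as a mutant with a deletion of Mycth_90344, a gene that the study's title calls a transcription factor acting on cellulase genes. Separate cultures for the WT pair, and the number of transformants behind the mutant, are not given in the labels, so p-values rest on a spread between libraries that may be technical. In bulk mycelium, fewer cells that transcribe a gene and less RNA per cell cannot be told apart.

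Between 20166880 and 21827636 reads were counted on genes per library. The labelled gene itself went against its label: MYCTH_90344 was covered by 6978 reads in the library labelled deletion and by 217 and 236 reads in WT, a 30.9-fold higher level. That library is therefore named by its label, and directions below are those seen in it. Whether loss or gain of MYCTH_90344, or another difference of the culture, goes with the xylanase values was not tested.

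On Avicel, WT mycelium transcribed all 6 xylanase genes, at levels that spanned 87.5-fold between the highest and the lowest. Levels between genes are compared as FPKM (fragments per kilobase of gene per 1000000 reads), which allow for gene length. The GH11 gene MYCTH_100068 led with 1992 and 1766 FPKM in WT replicates 1 and 2. It ranked 69 and 82 among 9097 protein-coding genes. The GH10 gene MYCTH_112050 followed with 808 and 771 FPKM. A middle tier held 3 genes. The GH10 gene MYCTH_116553 was at 282.1 and 281.7 FPKM, and the GH11 gene MYCTH_89603 at 270.3 and 263.2 FPKM. These neighbours in the order differed by only 1.06-fold in the mean of the WT pair, although their values did not overlap. The GH11 gene MYCTH_49824 was at 199 and 195 FPKM. The GH11 gene MYCTH_56237 stood far below, at 21.1 and 21.9 FPKM, which is 9.18-fold under MYCTH_49824.

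**Figure D1:**
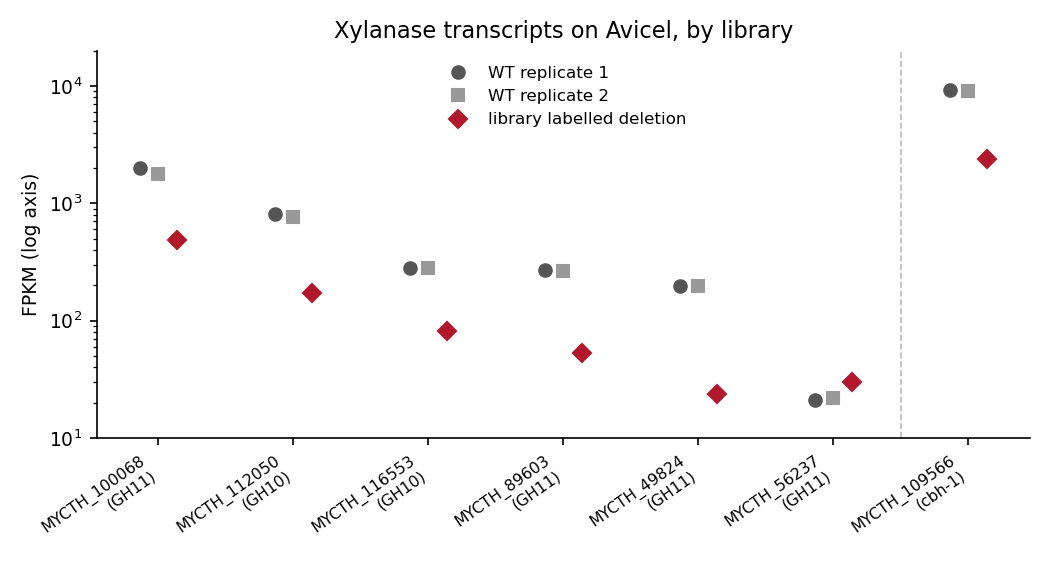
FPKM (log axis) of the 6 xylanase genes and of the cellobiohydrolase gene cbh-1 (MYCTH_109566), ordered by their WT mean, with 1 point per library. In 5 xylanase genes and in cbh-1 the library labelled deletion (diamonds) lies below both WT libraries, and in MYCTH_56237 it lies above them, at 29.8 against 21.1 and 21.9 FPKM.

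The order of the genes was the same in both WT libraries. The pair also lay close together gene by gene, as counts per 1000000 scaled by TMM (CPM, which is not divided by length). The largest gap was in MYCTH_100068, which was 11.8% higher in WT replicate 1, a log2 difference of 0.16 against a counting standard error of 0.01. MYCTH_112050 was 3.93% higher in WT replicate 1, also beyond its counting error (log2 difference 0.06, counting standard error 0.01). In the other 4 genes the WT libraries differed by less than the counting standard error. In FPKM, the MYCTH_100068 mean of 1879 ± 160.0 (SD, n = 2) thus carried the widest error of the group.

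Summed over the 6 genes, xylanase reads made up 0.295% of all counts in WT replicate 1 (95% Wilson interval 0.292 to 0.297%) and 0.279% in WT replicate 2 (0.277 to 0.282%). In the library labelled deletion they made up 0.0703% (0.0691 to 0.0714%), which was 4.09-fold lower. These intervals cover counting error only. The GH10 pair went from 0.129% ± 0.00154 (SD, n = 2) to 0.0303% of counts, or 4.26-fold lower. The GH11 genes went from 0.158% ± 0.00922 (SD, n = 2) to 0.0399%, or 3.96-fold lower. Both family sums were thus lower by similar factors. Each sum was mostly 1 gene. In WT replicate 1, MYCTH_112050 had 22163 of 28418 GH10 reads and MYCTH_100068 had 29858 of 35906 GH11 reads. The difference between the families was not tested.

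5 of the 6 xylanase genes fell and 1 rose, and all 6 passed the filter on low counts. The test was edgeR's quasi-likelihood test with Benjamini-Hochberg adjustment over the 8340 genes tested, at a threshold of 0.05. By that rule 27.6% of all tested genes fell and 28.1% rose, so passing the test was common in this comparison. The 5 xylanase genes also fell by at least 2-fold, which held for 6.65% of all tested genes. As the members were chosen with earlier results known, this comparison only describes them. The median log2 fold change of the 6 genes was -2.08, against 0.005 over all tested genes and -1.65 over 5 listed cellulase genes. Since the library labelled deletion has no replicate, the test took its spread from the WT pair and assumed that this library varies alike.

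Among the GH10 genes, MYCTH_112050 was at 1024 and 985 CPM in WT and at 218 CPM in the library labelled deletion. It fell 4.61-fold (log2 fold change -2.20 with an SE of 0.08, adjusted p = 8.08e-22 by edgeR). MYCTH_116553 was at 289 and 291 CPM in WT and at 83.9 CPM in the library labelled deletion. It fell 3.46-fold (log2 fold change -1.79 with an SE of 0.08, adjusted p = 2.40e-19 by edgeR). In both GH10 genes the library labelled deletion lay below both WT values, by far more than the WT values differed. MYCTH_116553 had the smallest fall of the 5 genes.

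Among the GH11 genes, the abundant MYCTH_100068 was at 1379 and 1234 CPM in WT and at 336 CPM in the library labelled deletion. It fell 3.88-fold (log2 fold change -1.96 with an SE of 0.08, adjusted p = 6.67e-20 by edgeR). The gap between its WT libraries was small beside that fall. MYCTH_89603 was at 154 and 151 CPM in WT and at 30.3 CPM in the library labelled deletion. It fell 5.03-fold (log2 fold change -2.33 with an SE of 0.09, adjusted p = 7.11e-21 by edgeR). MYCTH_49824 had the largest fall of the group. It was covered by 2469 and 2287 reads in WT and by 287 reads in the library labelled deletion, or 114 and 113 against 13.7 CPM. It fell 8.26-fold (log2 fold change -3.05 with an SE of 0.10, adjusted p = 4.13e-22 by edgeR).

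MYCTH_56237, the GH11 gene with the lowest WT level, moved the opposite way. It had 254 and 248 reads in WT and 349 in the library labelled deletion, or 11.7 and 12.3 against 16.7 CPM. The groups did not overlap, and the gene rose 1.39-fold (log2 fold change 0.48 with an SE of 0.15, adjusted p = 0.00837 by edgeR). The fold change was nearly the same in other fits, but it no longer passed the test with DESeq2 (log2 fold change 0.47, adjusted p = 0.170), nor when every gene was given a biological coefficient of variation (BCV) of 0.2 in place of the 0.0484 estimated from the WT pair (log2 fold change 0.48, adjusted p = 0.489 by the edgeR likelihood ratio test). The falls of the other 5 genes held with that BCV, by which 5.98% of all tested genes fell, with adjusted p between 4.98e-11 for MYCTH_49824 and 0.000103 for MYCTH_116553.

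**Figure D2:**
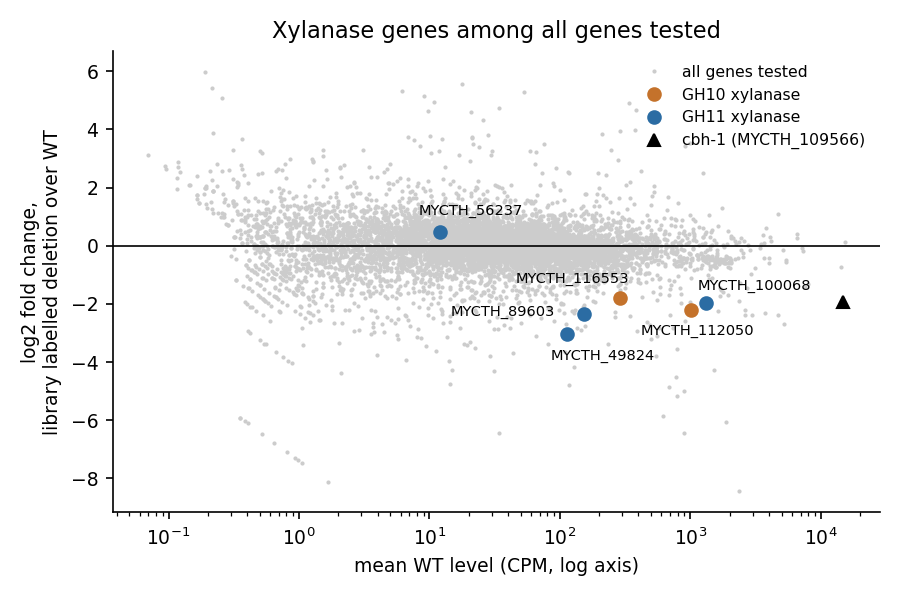
Log2 fold change in the library labelled deletion over WT against the mean WT level in CPM (log axis) for the 8340 tested genes (grey), with the GH10 genes in orange, the GH11 genes in blue and cbh-1 as a triangle. The 5 xylanase genes that fell lie between -1.79 and -3.05, and MYCTH_56237 lies at 0.48, within the dense band around 0.

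Ranked by log2 fold change from the largest fall, the 5 genes stood between place 61 (MYCTH_49824) and place 229 (MYCTH_116553) of 8340. Only 0.719% of tested genes had a lower value than MYCTH_49824, and 2.73% a lower value than MYCTH_116553. MYCTH_56237 stood at place 6674. Among protein-coding genes ranked by FPKM, MYCTH_100068 moved from 69 and 82 in WT to 327, and MYCTH_112050 from 212 and 211 to 775. MYCTH_49824 moved from 712 and 714 to 3888, and MYCTH_56237 from 4136 and 4043 to 3389.

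Relative to each gene's own WT share, the make-up of the xylanase transcript pool differed most among its least abundant genes. The order of the 4 most abundant genes was the same in all 3 libraries. MYCTH_100068 held 55.8% and 53.5% of the summed xylanase FPKM in WT and 57.4% in the library labelled deletion. MYCTH_112050 held 22.6% and 23.4% in WT and 20.3% in the library labelled deletion. Those shares were 1.05 and 0.883 times the mean WT shares. MYCTH_49824 held 5.57% and 5.93% in WT and 2.83% in the library labelled deletion. MYCTH_56237 held 0.591% and 0.663% in WT and 3.55% in the library labelled deletion, where it stood above MYCTH_49824 (29.8 against 23.8 FPKM). The shares of MYCTH_49824 and MYCTH_56237 were thus 0.492 and 5.66 times their mean WT shares. As points of the whole pool, the changes of these genes and of MYCTH_100068 and MYCTH_112050 were alike in size. The level of MYCTH_56237 itself rose only 1.39-fold, while the rest of the pool fell. In the library labelled deletion, the span from the highest to the lowest gene was 20.3-fold. The GH11 genes together held 68.8% ± 0.979 (SD, n = 2) of the summed FPKM in WT and 70.0% in the library labelled deletion, a difference close to the gap between the WT values of 69.5% and 68.1%. No test was run on these shares.

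**Figure D3:**
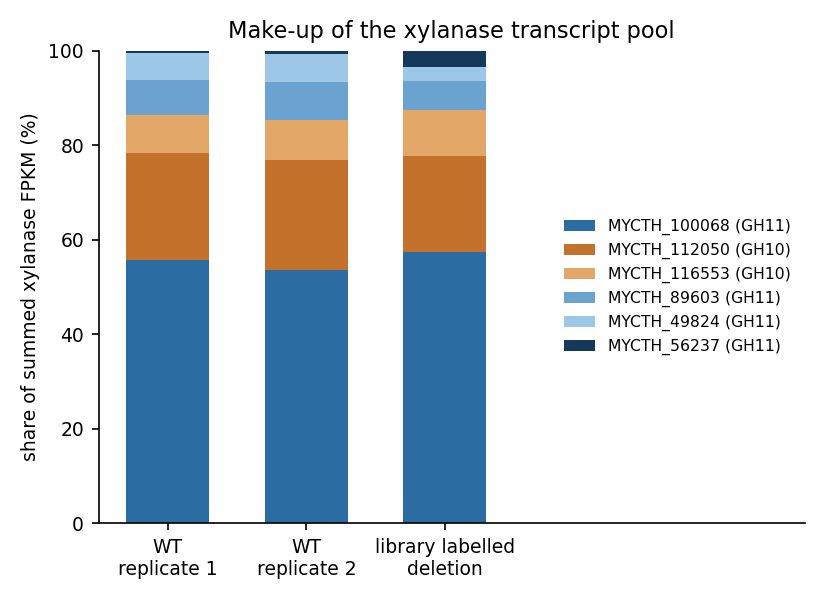
Share (%) of each gene in the summed FPKM of the 6 xylanase genes, with 1 stacked bar per library (GH11 in blues, GH10 in oranges). MYCTH_100068 fills more than any other gene in each bar, between 53.5% and 57.4%, and the darkest segment at the top, MYCTH_56237, goes from 0.591% and 0.663% to 3.55%.

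The cellobiohydrolase gene cbh-1 (MYCTH_109566), whose product releases cellobiose from the ends of cellulose chains, served as reference. A ratio to cbh-1 within a library does not depend on how libraries are scaled. MYCTH_100068 ran at 21.5% and 19.3% of the cbh-1 FPKM in WT and at 20.2% in the library labelled deletion, inside the WT range. That gene and cbh-1 thus fell by nearly the same factor, 3.88 and 3.84. MYCTH_116553 went from 3.04% and 3.08% of cbh-1 to 3.40%. MYCTH_112050 went from 8.71% and 8.42% to 7.14%, and MYCTH_89603 from 2.91% and 2.88% to 2.21%. These 3 ratios left the WT range by modest amounts, a change of 0.15, -0.26 and -0.39 on the log2 scale. The change of 0.153 in MYCTH_116553 was no larger than the gap of 0.154 between the WT libraries in the MYCTH_100068 ratio. MYCTH_49824 went from 2.14% in both WT libraries to 0.995%, a change of -1.10 on the log2 scale. MYCTH_56237 went from 0.228% and 0.239% to 1.25%, a change of 2.42 on the log2 scale. Most of that change was the fall of cbh-1 (log2 fold change -1.94). The gene's own log2 fold change was 0.48, a rise that did not pass the test in every fit. No test was run on the ratios, for which an exact permutation test of 1 library against 2 cannot give a p under 0.333.

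**Figure D4:**
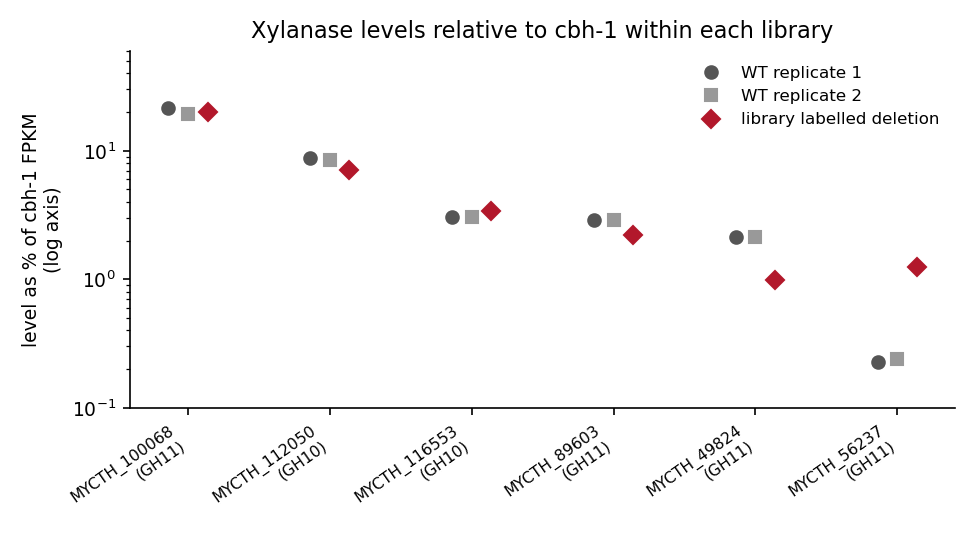
FPKM of each xylanase gene as a percentage of the cbh-1 FPKM of the same library (log axis), with 1 point per library. The library labelled deletion lies between the WT points for MYCTH_100068 (20.2% against 21.5% and 19.3%), lies furthest below WT for MYCTH_49824 (0.995% against 2.14%) and lies above WT for MYCTH_56237 (1.25% against 0.228% and 0.239%). Most of the last change is the fall of cbh-1 itself (log2 fold change -1.94).

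Listed genes of cellulose breakdown were set beside the xylanases, with lists taken from published work by locus tag. These lists were chosen with earlier results of these data known. All 5 cellulase genes fell, by 2.46- to 3.84-fold. So did both beta-glucosidase genes, whose products split cellobiose, by 2.89- and 6.0-fold, and the cellobiose dehydrogenase gene MYCTH_111388, by 4.98-fold. Over all tested genes, 27.6% fell by the same test, and 6.65% fell by at least 2-fold. The xylanase falls of 3.46- to 8.26-fold overlapped this range and reached beyond it in MYCTH_49824. Of 3 listed regulators, xyr-1 (MYCTH_2310145), the counterpart of the xylanase activator of other fungi, had WT values of 67.6 and 73.4 CPM, against 106 CPM in the library labelled deletion. It rose 1.51-fold (edgeR adjusted p = 1.59e-07), in the library in which 5 xylanase genes fell. Assuming a BCV of 0.2 removed that call (adjusted p = 0.321, edgeR likelihood ratio test). So did edgeR's glmTreat, which tests against a minimum of 1.5-fold (adjusted p = 0.742). For clr-2 (MYCTH_38704), which activates cellulase genes in related fungi, WT values of 41.6 and 45.0 CPM stood against 46.3 CPM, and the difference did not pass (edgeR adjusted p = 0.429). cre-1 (MYCTH_2310085), which acts in carbon catabolite repression, fell 1.24-fold (edgeR adjusted p = 0.000606). Its call was likewise removed by that BCV (adjusted p = 0.692, edgeR likelihood ratio test) and by glmTreat. The other alternatives with a test kept the xyr-1 and cre-1 calls. Whether the regulators' levels bear on the xylanase values was not tested.

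**Figure D5:**
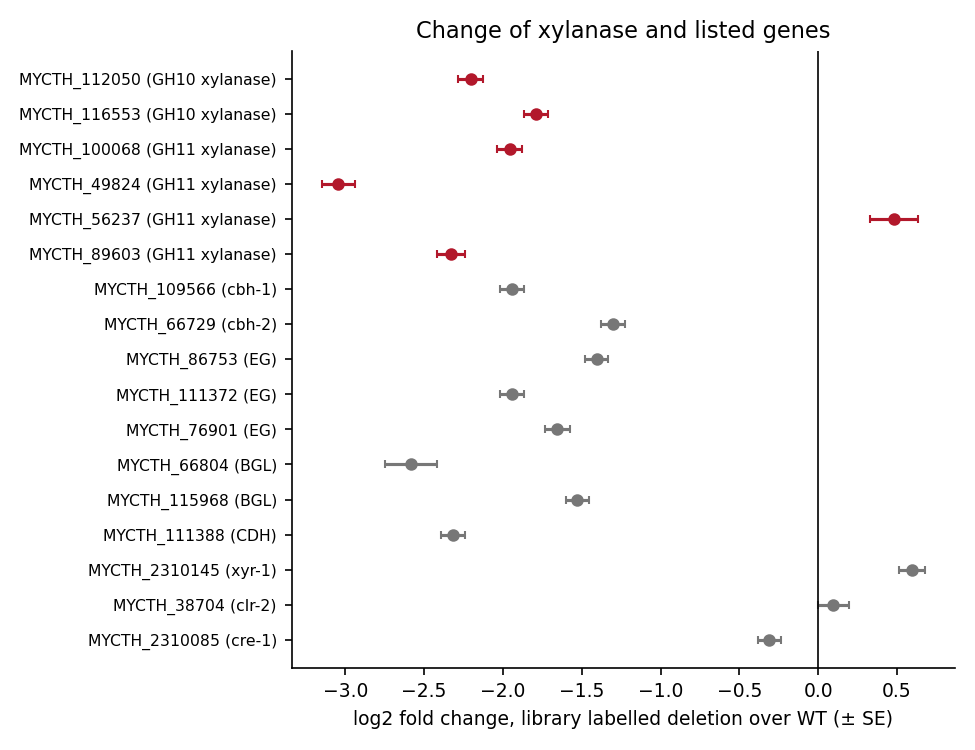
Log2 fold change in the library labelled deletion over WT, with bars of ± 1 SE from the edgeR fit, for the xylanase genes (red) and the listed cellulose-breakdown genes and regulators (grey; EG, endoglucanase; BGL, beta-glucosidase; CDH, cellobiose dehydrogenase). The xylanase genes spread from -3.05 in MYCTH_49824 to 0.48 in MYCTH_56237, wider than the 8 enzyme genes below them, from -2.58 to -1.30.

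In the gene order of assembly ASM22609v1 no xylanase gene of the 6 was a direct neighbour of another, and no gene span of a direct neighbour overlapped a xylanase gene. Of the 12 direct neighbours 9 could be tested, and 3 had at most 1 read in any library. 3 of the 9 fell, 2 rose and 4 did not pass the test. Those shares were near the 27.6% and 28.1% of all tested genes that fell and rose. These counts are thus no result about the neighbours as a group. By at least 2-fold, 2 of the 9 fell, against 6.65% of all tested genes, a difference that was not tested. MYCTH_54466, next to MYCTH_112050, was covered by 507 and 426 reads in WT and 41 in the library labelled deletion. It fell 11.3-fold (edgeR adjusted p = 1.85e-15), more than the xylanase gene beside it. MYCTH_49210, next to MYCTH_49824, fell 2.73-fold (edgeR adjusted p = 7.61e-11), and MYCTH_114691, next to MYCTH_100068, fell 1.76-fold (edgeR adjusted p = 3.84e-07). MYCTH_2299115, next to MYCTH_89603, and MYCTH_2309668, on the other side of MYCTH_112050, rose 1.53- and 1.52-fold. The gene table gives no function for these loci. The gene before MYCTH_56237, MYCTH_96290, had 2, 7 and 17 reads in WT replicate 1, WT replicate 2 and the library labelled deletion, too few to pass (edgeR adjusted p = 0.0734).

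Genes with the most similar profile were sought for the most abundant xylanase gene of each family, by the Euclidean distance of log2(FPKM + 1) over the 3 libraries. The nearest gene to the GH10 gene MYCTH_112050 was MYCTH_111372, a listed endoglucanase, at a distance of 0.218. MYCTH_111372 was at 776 and 718 FPKM in WT and at 194 FPKM in the library labelled deletion, and it fell 3.84-fold. The nearest gene to the GH11 gene MYCTH_100068 was MYCTH_33936, at a distance of 0.301, a locus without a listed function. It was at 2205 and 2097 FPKM in WT and at 453 FPKM in the library labelled deletion. The remaining 4 genes named by this rule were MYCTH_46583 and MYCTH_2315513 for MYCTH_112050, and MYCTH_2084695 and MYCTH_111088 for MYCTH_100068, at distances from 0.407 to 0.551. With 3 libraries, such a distance describes mainly the WT level and a single difference.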

How the data were processed

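The authors deposited 1 table of read counts and FPKM for 9292 genes in 3 libraries, per the file headers. TopHat2 2.0.8b and HTSeq 0.5.4p2 are named in the submitters' processing notes. Genome build, annotation and strandedness of the counting: not given in the sources used here. Antisense and overlapping genes may therefore share reads, and paralogues may too. The deposited FPKM equalled counts over a whole-number gene length (100% of 7417 to 7442 genes per library, within 0.01 bases) times 1 total per library. They hold no evidence beyond the counts. That total was 16882695 to 17907898, below the counted reads. No length exceeded the gene span in assembly ASM22609v1, which matched all 9292 locus tags. That assembly served only for gene order, names, gene spans and the choice of protein-coding genes for the FPKM ranks.

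The main test on counts used edgeR 4.0.16 under R 4.3.3 (filterByExpr, 8340 genes kept, TMM, glmQLFit and glmQLFTest). The single library labelled deletion left 1 residual degree of freedom per gene, moderated with 30.0 prior degrees. SE is the size of the log2 fold change over the square root of F. CPM use TMM-scaled library totals, and a floor of 3 counts is 0.137 to 0.149 CPM. The fit was also run on simulated counts in which all 3 libraries had the same spread. That run cannot check whether the library labelled deletion varies as the WT pair does. DESeq2 1.42.0, other scalings, filters and spreads were tried as alternatives.

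Members and lists were chosen with earlier results of these data known. Named genes were the members, cbh-1, the listed genes, MYCTH_90344, the direct neighbours, and the 3 genes nearest in profile to the leading gene of each family. Searches for family signatures in proteins were not run, as no protein sequences were used here.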

Additional observations from a re-analysis of the deposited data

How the results depend on the processing

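The log2 fold changes of the 5 xylanase genes that fell kept their direction under all 13 alternatives and their call under all 9 that have a test. Their values lay between -3.05 and -3.00 for MYCTH_49824, the widest shift being in MYCTH_100068, from -2.04 to -1.87. For MYCTH_49824, log2(FPKM + 1) gave -3.00 and leaving out a WT library gave -3.04 to -3.03. The 1.39-fold rise of MYCTH_56237 lost its call with DESeq2 (log2 fold change 0.47), with a BCV of 0.2 (0.48) and with glmTreat at a minimum of 1.5-fold (0.48), so that 0 xylanase genes rose under each of these 3. A larger assumed spread and a stricter null build in the latter 2, and for DESeq2 the cause was not tested. Over all genes, against 2300 that fell and 2343 that rose, a BCV of 0.2 gave 499 and 518, glmTreat gave 656 and 622, and DESeq2 gave 1658 and 1454. The xylanase median was -2.05 with upper quartile scaling and -2.13 to -2.03 without 1 WT library, and the cellulase median -1.74 to -1.56. The summed xylanase share fell 3.98- to 4.20-fold without 1 WT library. Without either WT library 1 library per group is left, so these values carry no test, and dropping the library labelled deletion would leave no comparison. The alternatives for protein family signatures were not run. No paired analysis was possible because no label pairs libraries and the mutant group holds 1 library.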
